A study of Mus musculus with 18 samples.

Results

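Prm1, Prm2, Prm3, Tnp1 and Tnp2 are the protamine and transition protein genes of the mouse. They were followed as 5 of the 54232 genes counted in round spermatids (RS), haploid cells past meiosis whose nuclei are still round. The members were chosen by name, with earlier results of these data known, and all 5 passed the filter on low counts that left 21058 genes for testing. RS had been isolated by sedimentation through a BSA gradient from testes of mice aged 75 to 85 days, of the genotypes WT, KO and KI, after a collagenase step meant to remove Leydig cells. KO mice lack GRTH, an RNA helicase encoded by Ddx25. KI mice carry a human GRTH gene with a missense mutation and lack the phosphorylated form of the protein, and spermatids of both lines are described as stopping before they elongate. Each genotype had 6 libraries, made from total RNA without polyA selection. The labels do not say whether the libraries of a genotype came from separate animals, so p-values measure the spread between these libraries.

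In elongating spermatids the transition proteins take the place of the histones on the DNA, and the protamines then replace the transition proteins and pack the sperm nucleus. Their genes are transcribed in RS, and the mRNAs are held back and translated later, when the nucleus condenses. PRM1 and PRM2 are the protamines of mouse sperm, TNP1 and TNP2 are the transition proteins, and PRM3 is an acidic protein of the cytoplasm whose gene lies in the protamine cluster. CREM, an activator of genes used after meiosis, binds DNA at the cAMP response element, whose full form reads TGACGTCA. GRTH is known to take part in the export and translation of germ cell mRNAs.

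Prm1, Prm2, Prm3 and Tnp2 lie on the minus strand of chromosome 16 within 17.9 kb (GRCm38, 10787936 to 10805839), and Tnp1 lies alone on the minus strand of chromosome 1 (73015074 to 73015909). The sequences before their start sites are shown because the 5 mRNAs fell together. They are taken from RefSeq promoters on GRCm38.p6, with all 5 genes matched. Each shows 100 bases, which for all genes but Prm1 run up to the more upstream of the RefSeq and GENCODE start sites. For Prm1, where GENCODE places the start 63 bases upstream of RefSeq, 30 bases of the GENCODE exon are included, and 7 of the 8 marked bases of Prm1 (chr16:10796880-10796887) lie in that exon. Capitals mark matches to TGANNTCA, the response element with its middle bases left free, and to TATA, the core of the TATA box. Both read the same on either strand.
Tnp1: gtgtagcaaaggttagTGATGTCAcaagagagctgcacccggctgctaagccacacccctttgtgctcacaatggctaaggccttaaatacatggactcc
Prm1: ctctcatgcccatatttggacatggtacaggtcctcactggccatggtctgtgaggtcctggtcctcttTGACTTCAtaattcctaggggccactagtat
Prm3: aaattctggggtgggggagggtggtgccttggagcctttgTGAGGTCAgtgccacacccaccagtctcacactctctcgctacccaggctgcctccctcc
Prm2: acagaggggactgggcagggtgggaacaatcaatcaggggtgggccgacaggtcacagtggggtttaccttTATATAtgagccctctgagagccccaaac
Tnp2: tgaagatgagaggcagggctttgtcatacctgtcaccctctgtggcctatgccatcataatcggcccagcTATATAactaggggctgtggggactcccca
The window of Tnp1 is chr1:73015910-73016009, that of Prm1 is chr16:10796857-10796956, that of Prm3 is chr16:10790915-10791014, that of Prm2 is chr16:10792106-10792205 and that of Tnp2 is chr16:10788661-10788760, all on the minus strand. Over the 250 bases before the RefSeq start, TGANNTCA occurred in Tnp1 (position -94, counted back from the base before the start), Prm1 (-64) and Prm3 (-60). TATA occurred in Prm1 (-32, outside the letters shown), Prm2 (-29 and -27) and Tnp2 (-35 and -33). The full element TGACGTCA was in none of the 5 windows. Of 32851 promoters in the table, 1.55% held TGACGTCA, 11.9% held TGANNTCA and 34.0% held TATA within these 250 bases. The motifs were chosen after the windows had been read, and a match is only a match of letters.

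The libraries held 18766971 to 26776555 counts on genes. The members were deeply counted, and the fewest counts on any of them in a library were 756, for Prm3 in KO 3. In WT, Ddx25 was at 538 to 607 normalized CPM (counts scaled to library size), whereas KO libraries held 47.7 to 90.9 and 5 KI libraries 0.0456 to 0.519. The library labelled KI 4 had 56.9 CPM, inside the range of KO, and its counts were closer to those of KO 2 than in any other pair of libraries. The main KI values that it moves are therefore also given without KI 4. The other 6 close pairs were of 1 genotype each, and summing them left 3 samples in WT, 5 in KO and 4 in KI. All 8 markers of elongating spermatids were lower by more than 1 log2 unit in KO and in KI (edgeR's glmTreat, adjusted p under 0.1), with a summed level of 6865 to 9257 CPM for WT, 733 to 2429 for KO and 1215 to 1917 for KI. The elongating spermatid markers were chosen with results of these libraries known and are also among genes that the study names as changed, so their count is no independent evidence. The 8 markers of RS summed to 792 to 1239.6 CPM for WT, 623 to 1269.96 for KO and 627 to 869 for KI, and the 5 Leydig cell markers to 9.68 to 19.7, 29.6 to 51.0 and 13.2 to 65.7 CPM. In bulk RNA, fewer cells of a stage and less RNA per cell cannot be told apart, so the part of elongating spermatids in the falls below cannot be told apart from that of the genotype.

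Prm2 and Prm1 fell furthest in KO. The lowest WT library held 4718 CPM of Prm2, the median was 6337 and the highest held 6799.6, whereas KO libraries held 255, 608 and 781 CPM in the same order. Every KO library thus lay far below every WT library, and KO 3 was the lowest of all. The fall was 10.3-fold, a log2 fold change of -3.36 (SE 0.22, 95% interval -3.78 to -2.93). Against a change of 1 log2 unit the adjusted p was 1.13e-07 (edgeR's glmTreat, Benjamini-Hochberg over all genes), and the fall ranked 23 among the 21058 genes.

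For Prm1 the lowest, median and highest levels were 1591, 2001 and 2114 CPM among WT libraries, and 205, 343 and 432 CPM among KO libraries. The genotypes did not overlap, and the lowest KO library was KO 1, not KO 3. Its fall was 6.04-fold (log2 fold change -2.59, SE 0.19, adjusted p = 4.56e-06 by glmTreat). Prm3, which had the lowest level per length of the members, held 314, 406 and 444 CPM among WT libraries and 35.9, 93.0 and 135 CPM among KO libraries. Its lowest KO library was again KO 3, with KO 1 the highest, so these KO libraries stood at opposite ends for Prm3. The fall was 4.42-fold (log2 fold change -2.14, SE 0.22, adjusted p = 0.00162 by glmTreat).

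The transition protein genes fell less than Prm2. WT libraries held 1725, 2006 and 2322 CPM of Tnp1 and KO libraries 415, 599 and 788 CPM, with no overlap. It had the smallest fall of the 5, 3.43-fold (log2 fold change -1.78, SE 0.18, adjusted p = 0.00969 by glmTreat). For Tnp2 these values were 1549, 1942 and 2381 CPM in WT against 254, 482 and 571 CPM in KO. It fell 4.36-fold (log2 fold change -2.13, SE 0.18, adjusted p = 2.24e-04 by glmTreat). All 5 members were called lower by more than 1 log2 unit in KO, against 1.13% of the genes tested, and 13.4% of genes were lower by any amount. The study names these 5 genes as downregulated in KO and KI, so neither this count nor that for KI below is independent evidence. How many of all genes tested also had no overlap between genotypes was not counted.

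**Figure D1:**
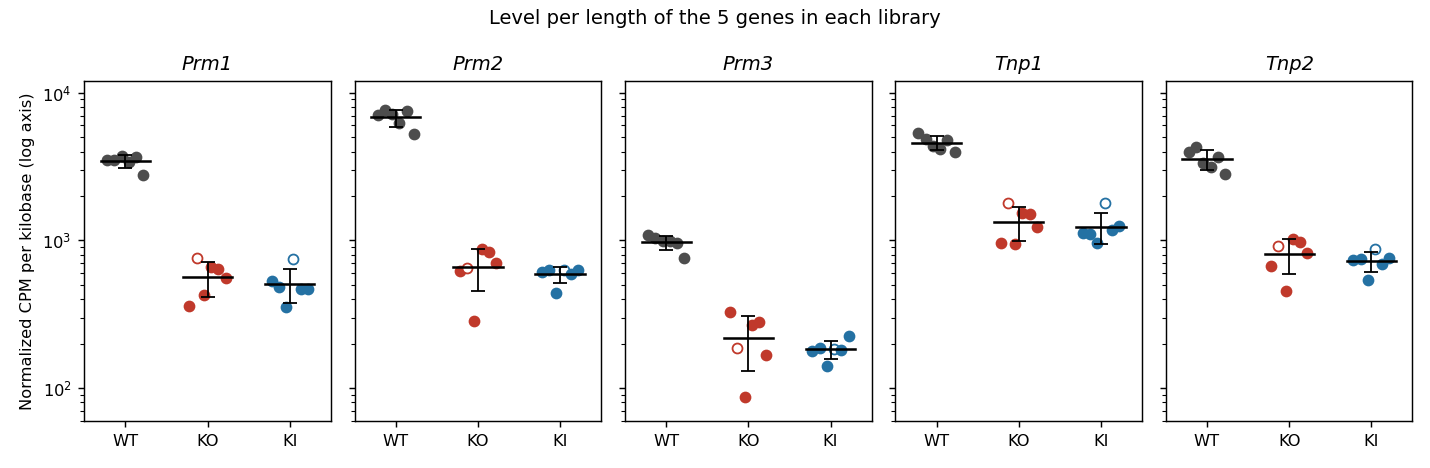
Normalized CPM per kilobase of table length on a log axis for each member in the 6 libraries of WT, KO and KI. Points are libraries, bars the mean and SD, and open points are KO 2 and the library labelled KI 4. Every WT library lies above every KO and KI library, which was not counted over all genes.

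The same genes were low in KI. Prm2 was at 394, 555 and 568 CPM (lowest, median and highest), Prm1 at 202, 274 and 428, and Prm3 at 58.1, 74.8 and 92.5. Tnp1 was at 420.3, 503 and 788 CPM and Tnp2 at 297, 413 and 483. None of these libraries reached the WT range, and the highest value of every member other than Prm3 was that of the library labelled KI 4. Log2 fold changes were -3.53 for Prm2 (SE 0.22, 11.5-fold lower), -2.75 for Prm1 (SE 0.20), -2.41 for Prm3 (SE 0.22), -2.29 for Tnp2 (SE 0.19) and -1.89 for Tnp1 (SE 0.18). The adjusted p values by glmTreat ran from 3.31e-08 for Prm2 to 0.00231 for Tnp1, so that 5 of 5 were called, against 1.42% of genes lower by more than 1 log2 unit and 15.4% lower by any amount. With the close pairs summed Tnp1 in KI was no longer called (adjusted p = 0.176 by glmTreat, log2 fold change -1.79). KO and KI share the WT libraries, so their falls are not independent of each other. Without KI 4, mean levels in KI were 491 ± 46.3 CPM for Tnp1 and 264 ± 37.3 CPM for Prm1 (SD, n = 5), against 541 ± 128 and 291 ± 74.9 CPM with it (SD, n = 6).

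KI and KO were compared directly. The log2 fold changes of KI against KO were -0.16 (95% interval -0.51 to 0.20) for Prm1, -0.17 (-0.56 to 0.22) for Prm2, -0.26 (-0.68 to 0.16) for Prm3, -0.11 (-0.45 to 0.23) for Tnp1 and -0.16 (-0.51 to 0.18) for Tnp2. Each interval holds 0 and also holds falls of 0.45 or more. These fits include KI 4. Under the alternatives, leaving out KI 4 among them, the log2 fold change ran from -0.30 to -0.02 for Prm1 and -0.33 to -0.03 for Prm2. It ran from -0.43 to -0.11 for Prm3, -0.25 to 0.03 for Tnp1 and -0.28 to -0.02 for Tnp2, with no member called. Without KI 4 the mean of Prm1 was 264 CPM in KI against 324 in KO, and that of Tnp1 491 against 583. With edgeR's quasi-likelihood test 0 of 5 members were called, 0 had an unadjusted p under 0.05, and DESeq2 called 0. Over all genes 18 differed between KI and KO by any amount, or 0.0855%, and 108 did without KI 4.

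**Figure D2:**
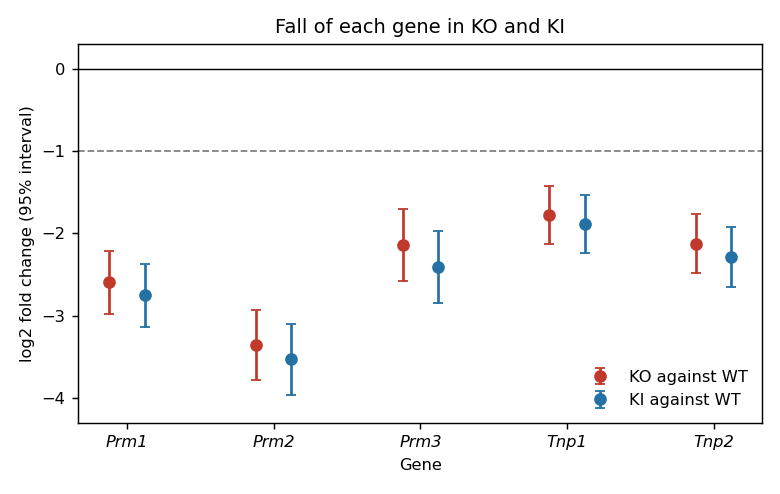
Log2 fold change of each member in KO and in KI against WT, with the 95% interval of the edgeR fit. The dashed line marks a fall of 1 log2 unit, and Prm2 lies lowest at -3.36 in KO and -3.53 in KI.

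To compare the genes with each other, levels were divided by the length that the count table gives for each gene. In WT, Prm2 stood at 6799 ± 899 CPM per kb, Tnp1 at 4575 ± 511, Tnp2 at 3541 ± 549, Prm1 at 3428 ± 336 and Prm3 at 970.4 ± 109 (SD, n = 6). Prm2 was highest and Tnp1 next in each of the 6 WT libraries. Tnp2 and Prm1 changed places, each being above the other in 3 of them, and do not differ beyond their spread. In KO the order was Tnp1 at 1333 ± 341 CPM per kb, Tnp2 at 812 ± 215, Prm2 at 663 ± 209.8, Prm1 at 568 ± 151 and Prm3 at 219.7 ± 88.7 (SD, n = 6). In KI it was Tnp1 at 1237 ± 293, Tnp2 at 725 ± 109, Prm2 at 589 ± 74.3, Prm1 at 509.9 ± 131 and Prm3 at 183 ± 26.6 CPM per kb (SD, n = 6), and without KI 4 Tnp1 was at 1123 ± 106 and Prm1 at 462 ± 65.4 CPM per kb (SD, n = 5). Prm2, first in every WT library, was thus behind both transition protein genes in all KO and KI libraries. The table length of Prm2 is 894 bases, and that of its main GENCODE transcript 621. Over the transcript lengths Tnp1 still came first in every KO and KI library, but Prm2 came directly after it in 5 of 6 KO and all 6 KI libraries. In WT Prm2 still came first over these lengths, but Prm1 stood at 4174 ± 409 CPM per kb (SD, n = 6). It was then below Tnp2 in only 1 WT library and above Tnp1 in 1, so the order of Prm1 and Tnp2 in WT depends on the length used. Together the 5 genes took 1.16% ± 0.127 of a WT library, 0.208% ± 0.0541 of a KO library and 0.190% ± 0.0276 of a KI library (SD, n = 6).

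The balance between the protamine genes was read from the ratio of their counts within each library, which needs no scaling between libraries. In WT the log2 ratio of Prm1 to Prm2 counts ran from -1.76 to -1.52, with a median of -1.63. In KO it ran from -1.45 to -0.07, with a median of -1.01, and in KI from -1.06 to -0.41, with a median of -0.97. In counts, Prm2 exceeded Prm1 by 3.10-fold ± 0.186 for WT, by 1.87-fold ± 0.593 for KO and by 1.86-fold ± 0.275 for KI (SD, n = 6), or 1.97-fold ± 0.0977 for KI without KI 4 (SD, n = 5). Every KO and KI library lay above every WT library. KO 4, KO 5 and KO 6 lay close together, at -0.99, -1.02 and -1.04, while KO 1 was at -1.45, KO 2 at -0.43 and KO 3 at -0.07. In KI, 5 libraries lay between -1.06 and -0.86, and the library labelled KI 4 stood apart at -0.41. Per kilobase the ratio was 0.507 ± 0.0301 for WT, 0.925 ± 0.339 for KO and 0.861 ± 0.160 for KI (SD, n = 6), and 0.797 ± 0.0408 for KI without KI 4 (SD, n = 5).

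The mean log2 ratio of Prm1 to Prm2 was higher in KO than in WT by 0.80 (approximate 95% interval 0.28 to 1.32). An exact permutation test over the libraries, two-sided, gave p = 0.00216, the smallest that 6 against 6 allows, and 0.004995 after adjustment over the 30 tests of gene pairs and comparisons. In KI the mean was higher than in WT by 0.75 (0.50 to 1.001), with the same exact permutation p of 0.00216. Without KI 4 the difference was 0.65. KI and KO differed by -0.05 (-0.58 to 0.48, exact permutation p = 0.903), and by -0.14 without KI 4 (exact permutation p = 0.600). With close pairs summed the KO difference was 0.84 and lost its call (adjusted exact permutation p = 0.132), while that of KI was 0.79 and kept it (0.0952).

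Tnp1 and Tnp2 were near equal in counts in WT. The WT libraries ran from -0.16 to 0.15 in the log2 ratio (median 0.05), those of KO from 0.20 to 0.71 (median 0.26) and those of KI from 0.21 to 0.71 (median 0.40). As with the protamines, no KO or KI library overlapped WT. In KO, 4 libraries lay between 0.20 and 0.28, with KO 2 at 0.64 and KO 3 at 0.71. The library labelled KI 4 was again the highest of KI at 0.71. The linear ratio of Tnp1 to Tnp2 counts was 1.03 ± 0.0724 for WT, 1.32 ± 0.217 for KO and 1.34 ± 0.169 for KI (SD, n = 6), and 1.28 ± 0.101 for KI without KI 4 (SD, n = 5).

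The mean log2 ratio of Tnp1 to Tnp2 was higher than in WT by 0.35 in KO (approximate 95% interval 0.11 to 0.59) and by 0.38 in KI (0.19 to 0.57). Each had an exact permutation p of 0.00216, two-sided, and 0.004995 after adjustment over the 30 tests. Without KI 4 the difference in KI was 0.32. KI and KO differed by 0.03 (-0.23 to 0.29, exact permutation p = 0.812), and by -0.03 without KI 4 (exact permutation p = 0.784). With close pairs summed the differences were 0.38 in KO and 0.41 in KI, and neither was called (adjusted exact permutation p = 0.153 and 0.132).

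**Figure D3:**
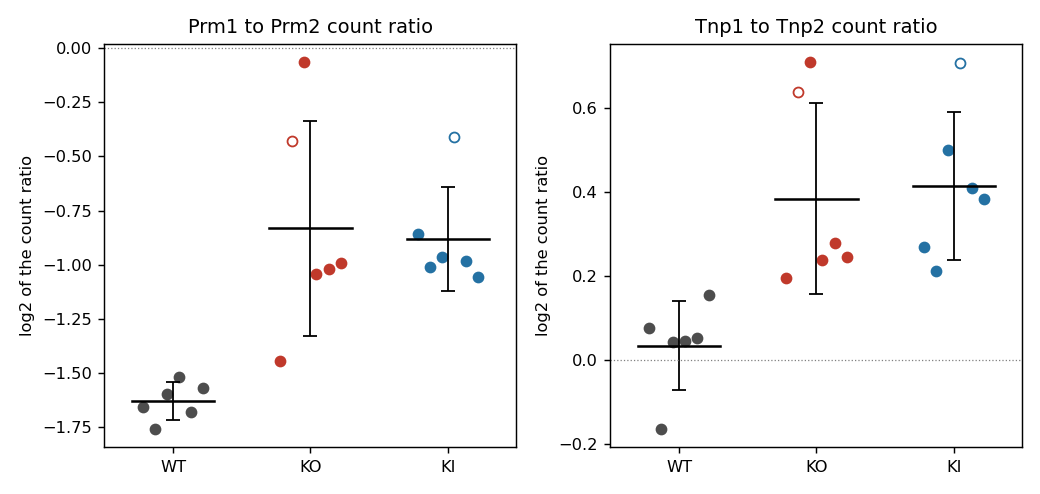
Log2 of the Prm1 to Prm2 and of the Tnp1 to Tnp2 count ratio in each library of WT, KO and KI, with the mean and SD. Open points are KO 2 and the library labelled KI 4; the WT libraries lie below all others in both panels, and KO spans -1.45 to -0.07 in the left one.

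The other 8 pairs placed Prm2 apart from the rest. Against Tnp1 the log2 count ratio of Prm2 was 1.60 for WT and -0.02 for KO and for KI, a difference of -1.62 in both. Against Tnp2 it was lower than in WT by 1.27 in KO and 1.24 in KI, and against Prm3 by 1.17 and 1.12, written here as sizes of the fall. None of these ratios overlapped WT in any library (exact permutation p = 0.00216 each, n = 6 per genotype). Prm1 relative to Tnp1 moved by -0.82 in KO and -0.87 in KI, also without overlap.

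For Prm3 and Tnp2 no difference was called, and their log2 ratio differed from WT by -0.10 in KO (-0.64 to 0.44, exact permutation p = 0.699) and by -0.12 in KI (-0.32 to 0.07, exact permutation p = 0.188). In KO the ratios of Prm1 to Prm3 (-0.38, -1.18 to 0.43) and of Prm3 to Tnp1 (-0.45, -1.16 to 0.27) had wide intervals and were not called. The 10 pairs are made of 5 genes, so their ratios are not independent, and calls over pairs of other genes were not counted. In all, 7 of 10 pairs differed between KO and WT and 9 of 10 between KI and WT at an adjusted p under 0.1. With close pairs summed these counts were 4 of 10 and 5 of 10, and beside the ratios given above the calls of Prm1 to Tnp2 in KO and KI and of Prm1 to Prm3 and Prm3 to Tnp1 in KI were lost. Between KI and KO 0 of 10 pairs differed, 0 had an unadjusted p under 0.05, and the differences lay between -0.06 and 0.05. Without KI 4 the differences lay between -0.14 for Prm1 to Prm2 and 0.09 for Prm2 to Tnp1, and 0 of 10 pairs were called.

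The libraries whose ratios stood apart also differed in another quantity. The share of counts on the mitochondrial ribosomal RNAs was 8.96% to 12.4% for WT, 7.07% to 21.3% for KO and 7.73% to 17.5% for KI. KO 3 had the highest share and KO 1 the lowest, and KO 2 and KI 4 had 17.4% and 17.5%. Within KO the log2 ratio of Prm1 to Prm2 followed this share with Pearson's r = 0.998 (exact permutation p = 0.00556, n = 6; adjusted 0.0389 over 21 relations) and Spearman's rho = 0.829 (exact permutation p = 0.0583, n = 6; adjusted 0.408). Without the 2 libraries farthest from the median share r was 0.986. In KI r was 0.53 (exact permutation p = 0.268, n = 6) and rho 0.486 (exact permutation p = 0.356, n = 6). There r was 0.762 without the 2 farthest libraries and -0.16 without KI 4. In WT r was 0.719 (exact permutation p = 0.110, n = 6) and fell to 0.05 without the 2 farthest libraries.

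The ratio of Tnp1 to Tnp2 followed the same share in KO (r = 0.965, exact permutation p = 0.00278, n = 6) and in KI (r = 0.916, exact permutation p = 0.00417, n = 6), each with an adjusted p of 0.0389. Spearman's coefficient was 0.943 in both (exact permutation p = 0.0167, n = 6; adjusted 0.175), and r without the 2 farthest libraries was 0.901 in KO and 0.788 in KI. In WT r was 0.639 (exact permutation p = 0.157, n = 6), and rho was 0.314 (exact permutation p = 0.564, n = 6). KO 4, KO 5, KO 6 and KI 6 had shares of 10.96% to 11.5%, inside the WT range. No WT library lay between these shares, and KO 4 and KO 5 are a close pair. Their log2 ratios of Prm1 to Prm2 were -1.06 to -0.99 and of Tnp1 to Tnp2 0.24 to 0.38. KO 1, KI 2 and KI 1 had shares below the WT range (7.07%, 7.73% and 8.78%). Their log2 ratios were -1.45, -1.01 and -0.86 for Prm1 to Prm2, and 0.20, 0.21 and 0.27 for Tnp1 to Tnp2. The highest WT values were -1.52 and 0.15. The part of the mitochondrial RNA share in the ratios was not tested.

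**Figure D4:**
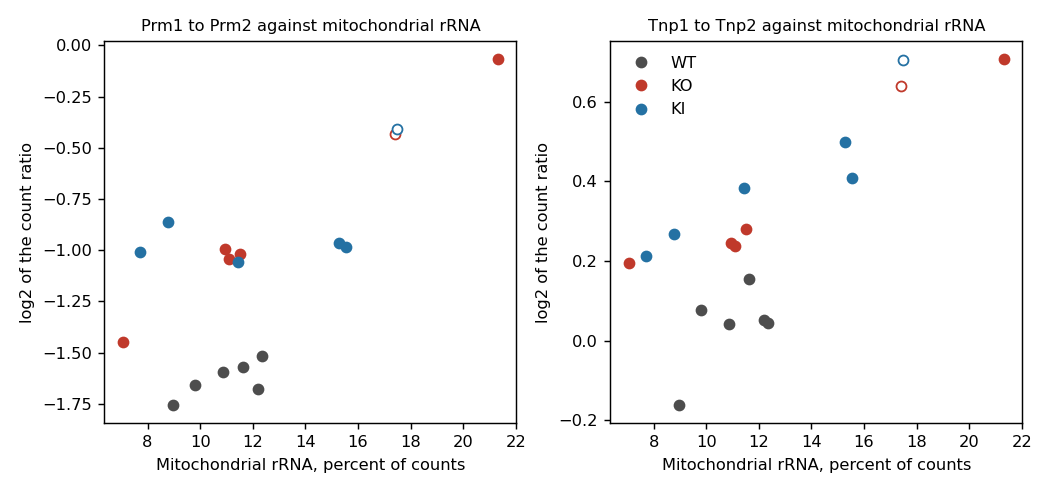
Log2 of the Prm1 to Prm2 and of the Tnp1 to Tnp2 count ratio against the percent of counts on mitochondrial ribosomal RNA, 1 point per library. Open points are KO 2 and the library labelled KI 4, and KO 3 lies at 21.3%. The KO and KI libraries between 10.96% and 11.5% lie above all WT libraries, the nearest of which in share are at 10.87% and 11.6%.

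The spread of the members between libraries was wide in KO, for 3 of them largely through KO 3. The SD of log2 CPM was 0.15 for Prm1, 0.20 for Prm2, 0.17 for Prm3, 0.16 for Tnp1 and 0.23 for Tnp2 in WT. In KO it was 0.41, 0.59, 0.70, 0.38 and 0.44 for the same genes, and without KO 3 it was 0.41, 0.21, 0.42, 0.34 and 0.25. Prm2 and Tnp2 were thus near their WT spread once KO 3 was left out, whereas Prm1, Prm3 and Tnp1 stayed above it. In KI the SD was 0.35, 0.20, 0.21, 0.31 and 0.23, and without KI 4 it was 0.22, 0.22, 0.24, 0.14 and 0.21, so the wide spread of Prm1 and Tnp1 in KI rests on that library. Over the 3864 genes with a mean above 50 CPM the median SD was 0.22 for WT, 0.23 for KO and 0.29 for KI. The difference in spread was not tested. The summed elongating spermatid markers were also lowest in KO 3, at 733 CPM, and between 1608 and 2429 CPM in the other KO libraries.

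Within each genotype the members rose and fell together to different degrees. In WT all 10 pairs had positive correlations of log2 CPM over the 6 libraries, with r between 0.612 (Prm1 with Tnp1) and 0.922. Prm1 and Prm2 had r = 0.922 (exact permutation p = 0.0111, n = 6) and rho = 0.771 (exact permutation p = 0.103, n = 6). Tnp1 and Tnp2 had r = 0.905 (exact permutation p = 0.0167, n = 6) and rho = 0.943 (exact permutation p = 0.0167, n = 6). Without the 2 libraries farthest from the median these were 0.811 and 0.897. Prm2 and Tnp2 had r = 0.869 (exact permutation p = 0.0181, n = 6) and rho = 0.829 (exact permutation p = 0.0583, n = 6), but r = 0.377 without the 2 farthest, so this relation rests on those libraries. Each of these r values had an adjusted p of 0.0833 over 30 relations.

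In KO the correlations were spread more widely, with r between 0.118 and 0.97. Prm1 went with Tnp1 (r = 0.970, exact permutation p = 0.00417, n = 6; rho = 0.943, exact permutation p = 0.0167, n = 6), and r was 0.999 without the 2 farthest libraries. Prm2 went with Tnp2 (r = 0.95, exact permutation p = 0.00556, n = 6; rho = 0.943, exact permutation p = 0.0167, n = 6), with r = 0.718 without the 2 farthest. Both had an adjusted p of 0.0556. Tnp1 and Tnp2 had r = 0.856 (exact permutation p = 0.0194, n = 6; adjusted 0.0833) and rho = 0.829 (exact permutation p = 0.0583, n = 6), but r = 0.505 without the 2 farthest, so this relation rests on them. Prm1 and Prm2, at r = 0.922 in WT, had r = 0.554 in KO (exact permutation p = 0.265, n = 6) and rho = 0.600 (exact permutation p = 0.242, n = 6). Their r in KO was -0.20 without the 2 farthest libraries. Prm1 and Prm3 had the lowest r, 0.118 (exact permutation p = 0.829, n = 6), with rho = -0.09 (exact permutation p = 0.919, n = 6). Without KO 3, r was 0.979 for Prm1 with Tnp1, 0.812 for Prm2 with Tnp2 and -0.52 for Prm1 with Prm3. Whether a correlation differed between genotypes was not tested.

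The same contrast can be read from the spread of the ratios. In KO the log2 ratio of Prm1 to Tnp1 had an SD of 0.10, where independent variation of the genes would give 0.56, while that of Prm1 to Prm3 had an SD of 0.77, against 0.81 for independent variation. Prm2 and Tnp2, between which Prm3 lies on chromosome 16, had 0.22 against 0.73, and Prm2 and Prm3 had 0.39 against 0.91. Prm1 and Tnp1 lie on different chromosomes. Prm1 and Prm2, which lie beside each other, had an SD of their log2 ratio of 0.50 in KO and 0.09 in WT.

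In KI, r lay between 0.409 and 0.942. Prm2 and Tnp2 again went together (r = 0.942, exact permutation p = 0.00278, n = 6; adjusted 0.0556) with rho = 0.943 (exact permutation p = 0.0167, n = 6), and r was 0.810 without the 2 farthest libraries. Prm1 and Tnp1 had r = 0.925 (exact permutation p = 0.0264, n = 6; adjusted 0.0990) and rho = 0.543 (exact permutation p = 0.297, n = 6). Without the 2 farthest libraries r was -0.54, so this relation rests on those libraries. Without KI 4 alone r was 0.738 (n = 5). Prm1 and Prm2 had r = 0.749 (exact permutation p = 0.146, n = 6) and rho = 0.829 (exact permutation p = 0.0583, n = 6), with r = 0.26 without the 2 farthest libraries and 0.945 without KI 4. Tnp1 and Tnp2 had r = 0.823 (exact permutation p = 0.0903, n = 6) and rho = 0.771 (exact permutation p = 0.103, n = 6), with r = 0.04 without the 2 farthest and 0.857 without KI 4. Neither pair was called. With TMM factors no rank correlation in any genotype had an adjusted p under 0.125 over the 30 relations. Since some libraries of a genotype formed close pairs, these correlations may rest on fewer than 6 separate samples. When levels were scaled to total counts instead of TMM factors, 2 of 30 r values had an adjusted p under 0.1 in place of 8, those of Prm1 with Tnp1 and Prm2 with Tnp2 in KO. On that scale 1 rank correlation was called, that of Prm1 with Tnp1 in KO (rho = 1.0, adjusted exact permutation p = 0.0833).

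**Figure D5:**
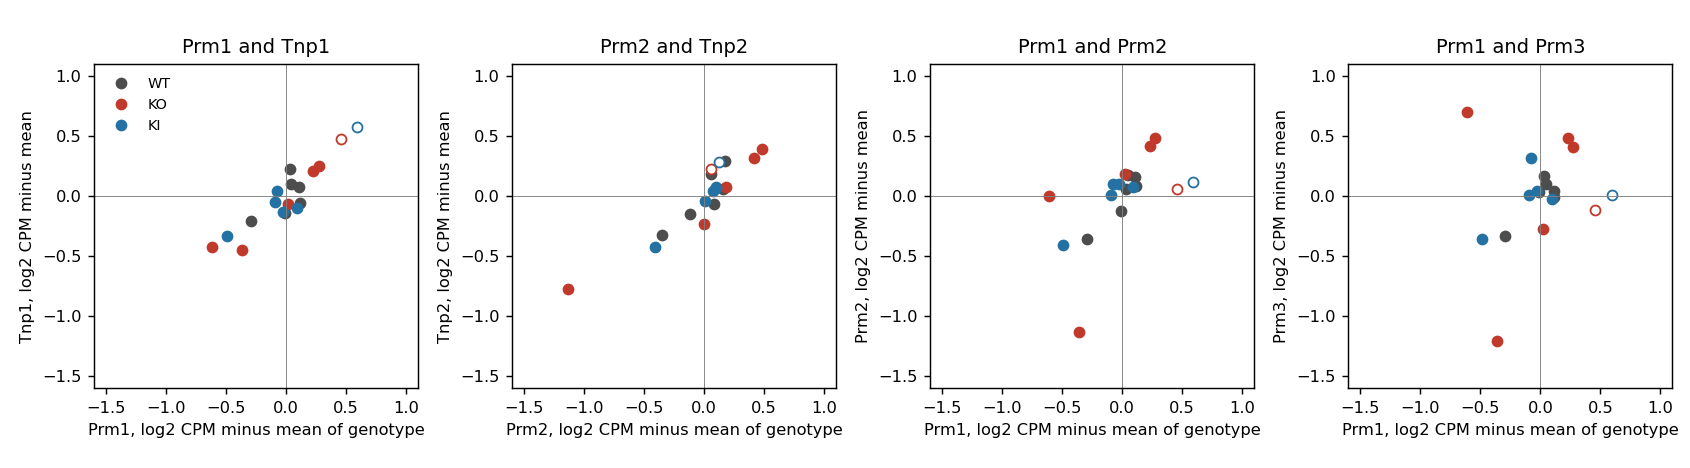
Log2 CPM minus the mean of the genotype for 4 pairs of genes, 1 point per library and the same scale on all axes. Open points are KO 2 and the library labelled KI 4. In KO the points follow a line for Prm1 with Tnp1 (r = 0.970) and scatter for Prm1 with Prm3 (r = 0.118). In WT r was 0.612 for Prm1 with Tnp1 and 0.838 for Prm1 with Prm3, and neither was called.

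Genes whose levels most resembled the mean log2 level of the 5 members over the 18 libraries were Tppp2 (r = 0.998), 1700012A03Rik (0.998), Fam71f2 (0.997), Car2, a carbonic anhydrase (0.997), and Prkar2a, a regulatory subunit of protein kinase A (0.997). These r values mainly carry the step between WT and the other genotypes, and 266 genes exceeded 0.95. Tppp2 is also among the elongating spermatid markers. After the mean of each genotype was taken out, the closest genes were Tppp2 (r = 0.965), Retreg1 (0.958), Fam71f2 (0.956), Tfam, a packaging protein of mitochondrial DNA (0.954), and Plbd1 (0.952). Plbd1 followed the members between libraries although its mean was 25.4 CPM for WT, 35.2 for KO and 34.0 for KI. On these deviations Tnp1 was ranked 6 of 21057 genes for likeness to Prm1 (r = 0.921), Prm2 was ranked 1059 (r = 0.587) and Prm3 was ranked 7767 (r = 0.205). Tnp2 was ranked 28 for likeness to Prm2 (r = 0.923) and Prm1 was ranked 2377, and Prm2 was ranked 8 for likeness to Tnp2. The deviations pool all genotypes, and every member had its widest spread in KO, so KO libraries weigh most in these ranks.

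Most other genes of the histone exchange were not called lower. Of 26 genes listed, 24 were found, and 3 of these fell by more than 1 log2 unit in KO and in KI by edgeR's glmTreat. These were Tssk6, a kinase needed for histone removal (log2 fold change -2.91 in KO and -3.12 in KI), H1fnt, a linker histone of spermatids (-1.80 and -2.17), and H2al2a, a histone variant that opens nucleosomes to transition proteins (-1.64 and -1.81). By any amount, 6 (25.0%) were lower and 4 (16.7%) higher in KO, against 13.4% and 16.4% of all genes tested. In KI 7 (29.2%) were lower and 5 (20.8%) higher, against 15.4% and 16% of all genes. The share of higher genes in KO was thus near that of all genes. The median log2 fold change of the list was -0.02 in KO and -0.0019 in KI, against 0.03 and 0.05 over all genes. The smallest changes in KO were those of Rnf8, a ubiquitin ligase (4.06 CPM for WT and for KO), and of the testis bromodomain protein gene Brdt (402 CPM for WT and 392.4 for KO). Hist1h1t, the linker histone of spermatocytes and a gene chosen after its value was seen, was higher in KO by 1.42 (adjusted p = 4.76e-04, glmQLFTest).

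Regulators of these genes were not called past 1 log2 unit. For the 14 genes listed for transcription of protamine and transition protein genes the adjusted p against 1 log2 unit was 0.321 or higher in KO and KI (glmTreat), and 5 (35.7%) were lower and 2 (14.3%) higher by any amount in KO, 6 (42.9%) and 2 (14.3%) in KI. Over all genes tested 13.4% were lower and 16.4% higher in KO, and 15.4% and 16% in KI, so the share of higher genes was near that of all genes. Kif17, a motor that carries a partner of CREM out of the nucleus, had the largest log2 fold change, -1.45 in KO and -1.93 in KI. Crem itself was lower by any amount, at 376 CPM for WT, 248 for KO and 227 for KI (log2 fold change -0.60 and -0.73). Next in size was Nr6a1, an orphan nuclear receptor of germ cells (-0.55 and -0.53). Rfx2 (-0.01 in KO) and Gtf2a1l (-0.0014 in KO) had the smallest changes. The list had a median of -0.24 in KO and -0.29 in KI.

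Of 15 genes for storage and translation of protamine mRNA, 2 (13.3%) were lower and 3 (20%) higher by any amount in KO, near the 13.4% and 16.4% of all genes. In KI 3 (20%) were lower and 3 (20%) higher, against 15.4% and 16% of all genes. The lower genes in KO were Ddx25 itself and Paip2, an inhibitor of poly(A)-binding protein (log2 fold change -0.92). The largest of the higher ones was Tsnax (0.47). Ybx2, which holds protamine mRNA in storage and was chosen after its values were seen, had -0.33 in KO (adjusted p = 0.234, glmQLFTest) and -0.46 in KI (adjusted p = 0.0845, glmQLFTest). Tarbp2, needed for translation of protamine mRNA, had 0.02, and Ddx4 had -0.06 in KO. The median of the list was 0.10 in KO and 0.09 in KI.

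The other genes around the cluster on chromosome 16 were not called lower. Within 100 kb lie 7 other genes, of which 5 were tested. Their mean levels were at most 44.4 CPM in WT, the highest being that of Clec16a. Their log2 fold changes in KO lay between -0.29 for Rmi2 and 0.30 for Socs1 (adjusted p of 0.293 or higher, glmQLFTest). On chromosome 1 the single neighbour within 100 kb is 1700027A15Rik, whose annotated span on the opposite strand covers Tnp1. It fell from 181 ± 20.4 CPM for WT to 28.1 ± 7.46 for KO and 25.3 ± 5.87 for KI (SD, n = 6), a log2 fold change of -2.69 and -2.84 (adjusted p = 7.94e-07 and 1.87e-07, glmTreat). The log2 fold changes of Tnp1 were -1.78 and -1.89, and the counting used strand.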

How the data were processed

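Strand-specific libraries of total RNA were sequenced in pairs. After trimming (cutadapt 3.4) and alignment to GRCm38 (STAR 2.7.8a), the authors counted reads by strand on GENCODE genes with featureCounts (Subread 2.0.1) and deposited the raw counts per gene, which were used unchanged. All value columns were matched to a library. Groups and replicate numbers come from the labels.

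Genes were filtered with filterByExpr, scaled with TMM factors and fitted with a quasi-likelihood model over all 18 libraries (edgeR 4.0.16, R 4.3.3). glmTreat tested changes past 1 log2 unit and glmQLFTest changes of any amount, adjusted by Benjamini-Hochberg at 0.1, the study's threshold. The fit was tested on simulated counts. Ratios are log2 ratios of raw counts per library, compared by exact permutation over 924 splits, and approximate 95% intervals use the spread of both groups. Correlations used all orders of 6 libraries. Intervals cover these libraries only, since the labels do not say whether the libraries of a genotype came from separate animals. PCR reads are not independent molecules.

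Named genes were the 5 members, Ddx25, the 5 genes most like the members by levels and by deviations, neighbours within 100 kb, and from each list the 3 genes with the largest and the 2 with the smallest absolute log2 fold change in KO. The members and lists were chosen with earlier results of these data known. Alternatives were DESeq2 1.42.0, its size factors, other filters, fewer genotypes, a replicate block, a threshold of 0.05, no mitochondrial genes, close pairs summed, 0.5 counts added, other scalings and lengths, and each library left out. The following were added after the data were seen: the interval form of glmTreat, leaving out both KO 2 and KI 4, and spreads and correlations without KO 3 or KI 4. Figures were drawn with matplotlib 3.10.9.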

Additional observations from a re-analysis of the deposited data

Results flagged for a closer look

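Of 45 groups of 6 libraries examined, 15 of member levels and 30 of count ratios, 8 had a highest or lowest library whose gap to its neighbour exceeded Dixon's 95% critical value as a share of the range of the group. Chance flags about 1 in 20 groups, and ratios that share a gene are not independent.

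The library labelled KI 4 gave 4 of them: the highest Tnp1 level of KI (788 CPM), the highest log2 ratio of Prm1 to Prm2 (-0.41), the lowest log2 ratio of Prm2 to Tnp2 (0.23) and the lowest of Prm3 to Tnp1 (-3.40). Its Ddx25 level lay in the range of KO, and KO 2, the library closest to it, had 788 CPM of Tnp1 and a log2 ratio of Prm1 to Prm2 of -0.43. KI 3 had the lowest Prm2 level of KI, 394 CPM. WT 6 had the lowest Prm1 level of WT, 1591 CPM. WT 2 had the lowest log2 ratio of Tnp1 to Tnp2 in WT, -0.16. KO 1 had the lowest log2 ratio of Prm1 to Tnp1 in KO, -1.04. The part of library quality in these values was not tested.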

How the results depend on the processing

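All 5 members stayed lower in KO and in KI, and past 1 log2 unit, under every alternative run except Tnp1 in KI with close pairs summed (log2 fold change -1.79). Summing close pairs, which leaves 3, 5 and 4 samples, also ended the calls of the Prm1 to Prm2 ratio in KO (0.84) and of the Tnp1 to Tnp2 ratio in KO (0.38) and KI (0.41), with the direction kept, and left 4 of 10 pairs called in KO and 5 of 10 in KI in place of 7 and 9. This alternative tests fewer samples. Leaving out 1 library at a time kept the call of each of these ratios against WT, and the Prm1 to Prm2 difference in KO then ran from 0.64 without KO 3 to 0.92 without KO 1. Same-numbered libraries deviated together (correlation over 0.1) in 2 of 6 pairs of KO and WT, 2 of 6 of KI and WT and 3 of 6 of KI and KO, so the numbers do not pair them. With the replicate block, in which same-numbered libraries were compared, the size of a difference stays the same by construction. For those 4 differences the exact p over sign changes of the paired differences was 0.03125, the smallest that this test allows. After adjustment it was 0.067, while Prm1 to Prm3 in KI and Prm1 to Tnp2 in KO lost their calls. Among the other 8 pairs 12 of 24 comparisons were called, and between 8 and 14 under the alternatives. Scaled to total counts, 2 correlations were called in place of 8 (6 with DESeq2's size factors), and the cause was not tested. With transcript lengths in place of table lengths the level was 4174 CPM per kb for Prm1 in WT, and for Prm2 9788 in WT, 954 in KO and 848 in KI, by construction of the shorter lengths.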
